A study of Mus musculus with 4 samples.

Results

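The sirtuin family (Sirt1 to Sirt7) and 3 genes of nicotinamide adenine dinucleotide (NAD) metabolism, Nampt, Nnmt and Nmnat1, were examined in fetal brown adipose tissue (BAT). These 10 genes were taken by symbol from the 22298 genes of the count table. Pregnant C57BL/6 mice (written C57BL/6J in the methods) drank sterilized tap water, here called control, or water with 20% (w/v) fructose, here called fructose, from mating until the fetuses were taken. BAT of fetuses from the last day of gestation, all labelled male, was sequenced as bulk RNA with 2 libraries per group and 4 in all. No genetic change is named for either group, and both shared strain, age and housing. The number of fetuses and litters behind each library was not given in the sources used here, so the p-values measure only the spread between these libraries, which may be technical.

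Sirtuins are enzymes that use NAD to take acetyl or longer acyl groups off lysines of other proteins, or to transfer ADP-ribose, and each reaction splits NAD and releases nicotinamide. Sirt1, Sirt6 and Sirt7 act mainly in the nucleus, Sirt2 mainly in the cytosol, and Sirt3, Sirt4 and Sirt5 in mitochondria, of which brown fat has many. Nampt is the rate-limiting enzyme of the salvage route that rebuilds NAD from nicotinamide. Nmnat1 joins the product of Nampt to an adenylate group in the nucleus, and Nnmt methylates nicotinamide, which takes it out of that route at the cost of a methyl group from S-adenosylmethionine.

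Total counts ran from 18542897 to 23645147 per library, and between 14859 and 15411 genes had at least 1 count. The 4 Y-linked genes checked (Eif2s3y, Ddx3y, Kdm5d and Uty) had 422 and 390 counts in control and 0 in both fructose libraries, against the male label of the latter, so fetal sex and maternal fructose cannot be told apart in any comparison below and no value without the affected libraries can be given. Mitochondrially encoded genes took 5.89% and 6.49% of counts in control and 10.8% and 11.2% in fructose. The brown adipocyte markers (Ucp1, Cidea and 6 others) summed to between 14038 and 17169 CPM (counts scaled to the library total, with trimmed mean of M values, TMM, factors) in every library, with overlapping groups. Ucp1 alone gave 9610 to 12430 CPM of this. Singly, Elovl3 and Ebf2 were called higher and Cox8b and Cox7a1 lower. Of the 10 skeletal muscle markers all 10 were higher in fructose, with sums of 243 and 330 CPM in control and 771 and 570 CPM in fructose. The 6 general adipocyte markers (3 called lower, none higher) summed to 13540 and 12577 CPM against 11541 and 11168 CPM, and the 7 erythroid markers (5 called lower, none higher) to 19212 and 15300 CPM against 11771 and 12146 CPM. With the length and GC trends described below removed, all 10 muscle markers were still called higher, and no adipocyte or erythroid marker was called lower. Of the brown adipocyte markers, 2 were then called higher and none lower. Hepatocyte markers summed to at most 0.133 CPM (Ttr and Afp at 0) and epidermal markers to at most 2.53 CPM (Krt14 at 0). The part of these differences in the values below was not tested. Fewer cells of a type and less RNA per cell cannot be told apart in bulk tissue.

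Of the 10 sirtuin and NAD genes, Sirt1 and Nampt were higher in fetal BAT of the fructose group and Sirt3 and Sirt2 were lower. Sirt1 RNA was 2.37-fold higher and Nampt RNA 1.42-fold higher, whereas Sirt3 RNA stood at 0.735-fold and Sirt2 RNA at 0.842-fold of control. The remaining 6 genes, Sirt4, Sirt5, Sirt6, Sirt7, Nnmt and Nmnat1, did not pass the test. All 10 passed the filter on low counts and entered edgeR's quasi-likelihood test over 12888 genes, with Benjamini-Hochberg adjustment over all of them and a call at an adjusted p under 0.05. By the same rule, 15.5% of all tested genes were called higher and 10.7% lower, so 2 of 10 higher and 2 of 10 lower were within 1 gene of what those shares give and are no result about the 10 genes as a group. The median log2 fold change was -0.09 over the 10 genes and 0.0025 over all tested genes.

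**Figure D1:**
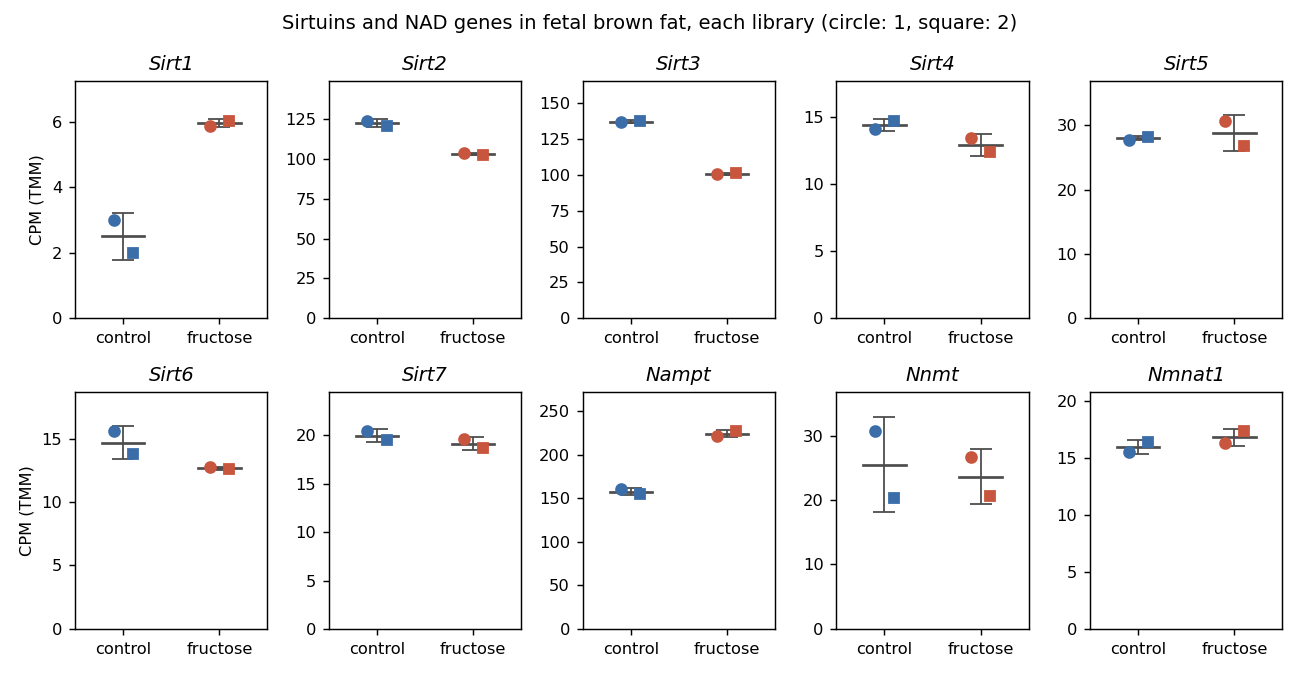
Each panel plots 1 gene, with CPM after TMM scaling on the vertical axis from 0 and the control (blue) and fructose (red) groups on the horizontal axis. Circles are library 1 and squares library 2 of each group, long bars are means and error bars are SD (n = 2). Sirt1 (1.997 to 3.01 against 5.88 to 6.04 CPM), Nampt (155.1 to 160.3 against 221.3 to 227.2 CPM), Sirt3 (136.5 to 137.9 against 100.4 to 101.3 CPM) and Sirt2 (121.0 to 124.3 against 102.8 to 103.7 CPM) had groups that did not overlap and passed the test. Of all tested genes, 33.4% had both fructose libraries above both control libraries and 31.6% had both below.

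The sequence just upstream of the start site is shown for the 4 genes that passed the test, to set the promoters of the genes that rose beside those of the genes that fell. The windows come from RefSeq on GRCm38.p6 and run from 250 bases before to 50 bases after the annotated start of transcription. Capitals mark matches, on either strand, to 5 motifs: the E-box CACGTG, the GC box GGGCGG, the nuclear respiratory factor 1 motif GCGCNTGCG, the ETS motif CCGGAAG and the cAMP response element TGACGTCA. Sirt1 is at chr10:63338986-63339285 (minus strand), Nampt at chr12:32820085-32820384 (plus strand), Sirt3 at chr7:140882260-140882559 (minus strand, the first of its 2 annotated windows) and Sirt2 at chr7:28766502-28766801 (plus strand).
Sirt1: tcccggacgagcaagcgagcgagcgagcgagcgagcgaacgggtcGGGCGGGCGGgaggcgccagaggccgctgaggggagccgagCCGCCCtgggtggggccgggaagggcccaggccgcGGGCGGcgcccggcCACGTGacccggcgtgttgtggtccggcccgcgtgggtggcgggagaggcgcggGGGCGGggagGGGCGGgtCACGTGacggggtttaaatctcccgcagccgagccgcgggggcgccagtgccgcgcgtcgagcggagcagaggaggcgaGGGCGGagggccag
Nampt: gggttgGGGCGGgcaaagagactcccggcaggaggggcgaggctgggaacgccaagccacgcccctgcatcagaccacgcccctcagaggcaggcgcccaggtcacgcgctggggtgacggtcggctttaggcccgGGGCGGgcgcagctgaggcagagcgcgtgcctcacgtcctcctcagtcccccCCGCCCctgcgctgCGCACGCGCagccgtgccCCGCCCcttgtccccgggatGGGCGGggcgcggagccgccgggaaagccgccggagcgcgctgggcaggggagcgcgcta
Sirt3: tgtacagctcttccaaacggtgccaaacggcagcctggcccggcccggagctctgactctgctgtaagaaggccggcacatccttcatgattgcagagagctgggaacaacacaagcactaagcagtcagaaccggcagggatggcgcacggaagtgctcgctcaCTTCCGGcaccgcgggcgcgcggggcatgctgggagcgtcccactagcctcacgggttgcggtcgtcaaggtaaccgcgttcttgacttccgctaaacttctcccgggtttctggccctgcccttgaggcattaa
Sirt2: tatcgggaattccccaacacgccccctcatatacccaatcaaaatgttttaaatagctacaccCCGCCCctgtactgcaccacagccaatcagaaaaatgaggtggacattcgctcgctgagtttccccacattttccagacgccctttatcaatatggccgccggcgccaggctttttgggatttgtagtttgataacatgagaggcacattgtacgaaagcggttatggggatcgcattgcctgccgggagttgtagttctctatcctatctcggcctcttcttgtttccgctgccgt
The Sirt1 window held 2 E-boxes, which begin 115 and 43 bases before the start, and 7 GC boxes, of which the first 2 overlap in a shared run of capitals. The Nampt window held 5 GC boxes and 1 nuclear respiratory factor 1 motif that begins 48 bases before the start. The Sirt3 window shown held 1 ETS motif that begins 85 bases before the start and no GC box, while its second window (chr7:140881820-140882119, minus strand, 64.67% G and C, not shown) held 4 GC boxes, which begin 69, 47, 24 and 4 bases before that start, and no ETS motif. The Sirt2 window held 1 GC box that begins 187 bases before the start. No cAMP response element was found in these 4 windows, and no 2 different motifs overlapped. Among all 32851 windows of the same length, 7.15% held an E-box, 35.66% a GC box, 6.313% the nuclear respiratory factor 1 motif, 8.858% the ETS motif and 1.79% the cAMP response element. The promoters of the 2 genes that were higher were also the richer in G and C, at 79% for Sirt1 and 76.33% for Nampt, against 61% and 64.67% for the 2 Sirt3 windows, 50% for Sirt2 and a median of 52.67% over all windows. Among the genes that were not called, the windows held 69% and 67.67% (Nmnat1), 62% (Sirt5), 57.33% and 61.33% (Sirt6), 52% (Sirt4) and 51.33% (Sirt7). The directions used here are those with TMM scaling only. With the length and GC trends described below removed, Nampt was at a log2 fold change of -0.09, and Nampt, Sirt3 and Sirt2 were not called. A link between promoter content and direction was not tested. The motif matches are letters in a window and no binding was measured. The Sirt1 and Nampt windows lie inside the GENCODE spans of these genes given below. Windows were matched for 9 of the 10 genes, not for Nnmt.

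Sirt1 (ENSMUSG00000020063, chr10:63319005-63381704, minus strand, protein-coding) encodes the nuclear deacetylase best known for acting on histones, p53 and the coactivator PGC-1α. Its counts were 57 and 36 in control against 133 and 148 in fructose, or 3.01 and 1.997 against 5.88 and 6.04 CPM. Both fructose libraries were above both control libraries, and the control pair was the more spread of the groups. The means were 2.503 ± 0.716 and 5.96 ± 0.114 CPM (SD, n = 2), a log2 fold change of 1.25 (SE 0.25, 95% interval 0.71 to 1.78, edgeR adjusted p = 0.00435). Sirt1 was the least abundant of the 10 genes per length in both groups, so this call rested on the fewest reads.

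Sirt6 and Sirt7 are the other nuclear sirtuins, the first a chromatin deacetylase tied to DNA repair and glycolytic genes and the second a nucleolar enzyme tied to ribosomal RNA synthesis. Sirt6 was at 15.6 and 13.8 CPM in control and at 12.7 and 12.6 CPM in fructose (log2 fold change -0.21, SE 0.14, edgeR adjusted p = 0.275). Sirt7 was at 20.4 and 19.5 CPM in control and at 19.6 and 18.7 CPM in fructose (log2 fold change -0.06, SE 0.12, edgeR adjusted p = 0.727). The Sirt6 groups did not overlap but their difference did not pass the test, and the Sirt7 groups overlapped. Sirt7 shares 124 exon bases, 2.41% of its exon length, with Mafg on the same strand, so a few of its reads may have been split between the 2 genes. Among the nuclear sirtuins, Sirt1 alone passed the test, and a difference between its change and that of Sirt6 or Sirt7 was not tested.

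Sirt2 (ENSMUSG00000015149, chr7:28766735-28788661, plus strand, protein-coding) encodes the mainly cytosolic member, known as a deacetylase of tubulin and, in fat cells, of FOXO1. It was at 124.3 and 121.0 CPM in control and at 103.7 and 102.8 CPM in fructose. The groups did not overlap, and the gap between them was several times the gap within either. The means were 122.7 ± 2.32 and 103.3 ± 0.632 CPM (SD, n = 2), a log2 fold change of -0.25 (SE 0.08, 95% interval -0.42 to -0.08, edgeR adjusted p = 0.0362). The call was close to the threshold: it was lost with DESeq2 (adjusted p = 0.0541), with library size as the only scaling (log2 fold change -0.19, edgeR adjusted p = 0.0923), and when control library 1 or either fructose library was left out (log2 fold changes from -0.25 to -0.23).

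Sirt3 (ENSMUSG00000025486, chr7:140863666-140882309, minus strand, protein-coding) encodes the main mitochondrial deacetylase, whose known targets include enzymes of fatty acid oxidation and the respiratory chain. It was at 136.5 and 137.9 CPM in control and at 100.4 and 101.3 CPM in fructose. Libraries of the same group lay close together, and every fructose library was below every control library. The means were 137.2 ± 0.938 and 100.9 ± 0.646 CPM (SD, n = 2), a log2 fold change of -0.44 (SE 0.08, 95% interval -0.61 to -0.27, edgeR adjusted p = 0.00241). Exons of Sirt3 overlap Ric8a over 418 bases (6.998% of its exon length) and Psmd13 over 342 bases (5.73%), both on the opposite strand, and without a stated strand setting reads there cannot be told apart.

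Sirt4 and Sirt5, the other mitochondrial sirtuins, did not pass the test. Sirt4, a lipoamidase and ADP-ribosyltransferase that acts on glutamate dehydrogenase, was at 14.1 and 14.8 CPM in control and at 13.5 and 12.4 CPM in fructose (log2 fold change -0.16, SE 0.14, edgeR adjusted p = 0.418). Sirt5, which removes succinyl and malonyl groups, was at 27.8 and 28.2 CPM in control and at 30.7 and 26.8 CPM in fructose (log2 fold change 0.04, SE 0.11, edgeR adjusted p = 0.824). Sirt4 was lower in both fructose libraries by less than the test could call, while the fructose libraries of Sirt5 lay on both sides of the control libraries.

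Nampt (ENSMUSG00000020572, chr12:32819545-32853349, plus strand, protein-coding) makes nicotinamide mononucleotide, and its product feeds Nmnat1. It had 3037 and 2796 counts in control and 5003 and 5562 in fructose, or 160.3 and 155.1 against 221.3 and 227.2 CPM. Both fructose libraries were above both control libraries. The means were 157.7 ± 3.70 and 224.2 ± 4.14 CPM (SD, n = 2), a log2 fold change of 0.51 (SE 0.08, 95% interval 0.33 to 0.68, edgeR adjusted p = 0.00135). The call ended and the sign turned with the GC trend described below removed (-0.087, edgeR adjusted p = 0.527) and with both trends removed (-0.092, edgeR adjusted p = 0.558).

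The next step and the competing step did not pass the test. Nmnat1 (ENSMUSG00000028992) was at 15.5 and 16.4 CPM in control and at 16.3 and 17.3 CPM in fructose, with overlapping groups (log2 fold change 0.08, SE 0.13, edgeR adjusted p = 0.692). Nnmt (ENSMUSG00000032271) was at 30.7 and 20.3 CPM in control and at 26.7 and 20.6 CPM in fructose (log2 fold change -0.11, SE 0.18, edgeR adjusted p = 0.674). Nnmt spread widely between the libraries of both groups, and its direction and call depended on single libraries. Without control library 1 its log2 fold change was 0.22 and without fructose library 2 it was 0.067, both against the sign above, and without control library 2 it was -0.38 and passed the test (edgeR adjusted p = 0.0218).

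Levels of different genes were compared as CPM per kb of the longest protein-coding transcript. In control the order was Sirt3 (85.4), Sirt2 (58.0), Nampt (34.8), Nnmt (24.4), Sirt7 (11.6), Sirt5 (11.5), Sirt4 (8.04), Sirt6 (7.76), Nmnat1 (6.00) and Sirt1 (0.565 CPM per kb). Sirt7 and Sirt5, and Sirt4 and Sirt6, had overlapping libraries and could not be ordered. In fructose Sirt3 stayed first at 62.8 CPM per kb, while Nampt (49.5) and Sirt2 (48.8) overlapped, as did Sirt5 (11.9) and Sirt7 (11.1). Nnmt (22.7), Sirt4 (7.21), Sirt6 (6.69), Nmnat1 (6.32) and Sirt1 (1.35 CPM per kb) followed, and here Sirt4 and Sirt6 did not overlap. Nampt and Sirt2, clearly apart in control, were thus at like levels in fructose with TMM scaling, without removal of the length and GC trends described below.

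The sirtuin RNA pool was made mostly of Sirt3 and Sirt2. Summed over the 7 sirtuins, the level was 183.8 and 181.9 CPM per kb in control and 151.1 and 148.4 CPM per kb in fructose. Sirt3 made up 46.3% and 47.2% of that sum in control and 41.4% and 42.5% in fructose, and Sirt1 made up 0.370% and 0.248% in control and 0.879% and 0.919% in fructose. The ratio of Sirt3 to Sirt1, both per kb, was 125 and 190 in control and 47.1 and 46.2 in fructose, with no overlap. Sirt3 was below and Sirt1 above control in every fructose library, so this lack of overlap was given by the genes themselves and adds no evidence. The ratio of Nampt to Nmnat1, both per kb, was 6.06 and 5.56 in control and 7.98 and 7.70 in fructose, also with no overlap. The ratio of Nampt to Nnmt, both per kb, was 1.204 and 1.76 in control and 1.91 and 2.54 in fructose, which do not overlap either but spread widely within each group. Nampt by itself was above control in every fructose library, so these Nampt ratios add no separate evidence. Of all tested genes taken singly, 33.4% had both fructose libraries above both control libraries and 31.6% had both below. No such share was computed for ratios. The sums, shares and ratios have TMM scaling only. With the length and GC trends described below removed, the log2 fold change of Nampt (-0.09) lay below those of Nmnat1 (0.12) and Nnmt (0.19). Sirt3 was then at -0.17 and Sirt2 at -0.04, and neither was called.

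The genes whose centred log2 CPM over the 4 libraries lay nearest to Nampt were Mtrf1, Shroom4 and Ube2g1, with root mean square differences of 0.0078, 0.013 and 0.015. Those nearest to Sirt3 were Naxe, Rdm1 and Rpl7a, at 0.012, 0.013 and 0.017. With 4 libraries such likeness is common: 672 genes lay within 0.1 of Nampt and 1226 within 0.1 of Sirt3. Naxe, an enzyme that repairs damaged NADH and NADPH, was at 216.5 and 217.0 CPM in control and at 158.7 and 157.3 CPM in fructose.

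**Figure D2:**
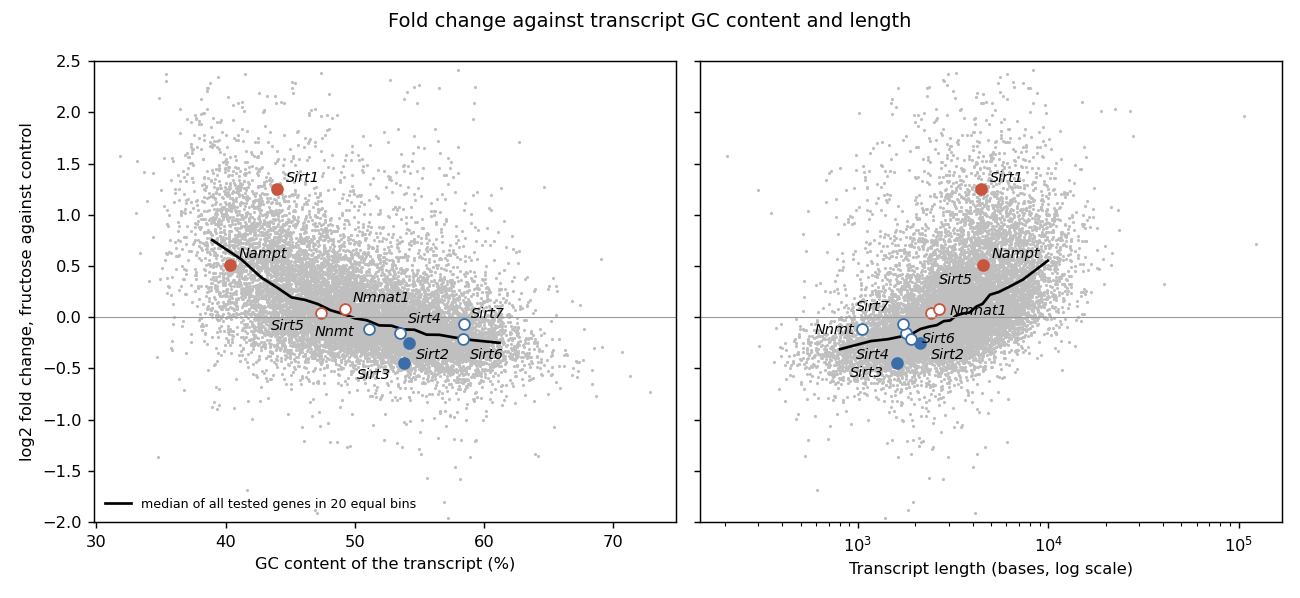
The log2 fold change (fructose against control, vertical axis) is plotted against transcript GC content in percent (left) and transcript length in bases on a log axis (right), with all tested genes in grey, the 10 sirtuin and NAD genes in red (above 0) or blue (below 0), filled where the adjusted p was under 0.05, and a black line for the median in 20 equal bins. Sirt1 and Nampt sit among the AT-rich and longer transcripts, where the line is above 0, and Sirt2 and Sirt3 among shorter, GC-richer ones, where it is below 0. Another 32 genes lie beyond the vertical axis.

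Fold changes over the whole table followed transcript length and GC content. Across 12884 genes, which are not independent replicates, Spearman's rho of the log2 fold change was 0.516 with length and -0.531 with GC content, against values from 0.0132 to 0.170 for length and from -0.212 to 0.137 for GC content between the 2 libraries of a group. Nampt (4527 bases, 40.31% GC) and Sirt1 (4430 bases, 43.97% GC) were in the quartile of genes with the lowest GC content, where the median log2 fold change was 0.42 and 38.7% of genes were called higher, and in the third length quartile, where the median was 0.065 and 15.3% were called higher. Sirt3 (1606 bases, 53.80% GC) was in the shortest quartile, where the median was -0.23 and 27.0% of genes were called lower. Sirt2 (2117 bases, 54.18% GC) was in the second length quartile, where the median was -0.075 and 9.66% were called lower. Both were in the third GC quartile, where the median was -0.087 and 12.3% were called lower. The trends moved with the groups, and whether they belong to the tissue or to the libraries cannot be told apart here.

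With both trends removed from each library, Sirt1 kept its call and the other 3 genes lost theirs. Sirt1 had a log2 fold change of 0.90 (edgeR adjusted p = 0.0406). Sirt3 had -0.17 (edgeR adjusted p = 0.226), and it passed the test with only the length trend removed (-0.27, edgeR adjusted p = 0.0398) or only the GC trend removed (-0.34, edgeR adjusted p = 0.0158). Sirt2 had -0.04 (edgeR adjusted p = 0.839). Nampt had -0.09 (edgeR adjusted p = 0.558): it kept its call without the length trend (0.35, edgeR adjusted p = 0.0122) and not without the GC trend, where it was at -0.09. Sirt7 was the member not called before that moved the most, from -0.06 to 0.26 (edgeR adjusted p = 0.185). In that fit 3.26% of all tested genes were called higher and 3.8% lower, beside 1 and 0 of the 10 genes, whose median log2 fold change moved from -0.09 to 0.09.

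**Figure D3:**
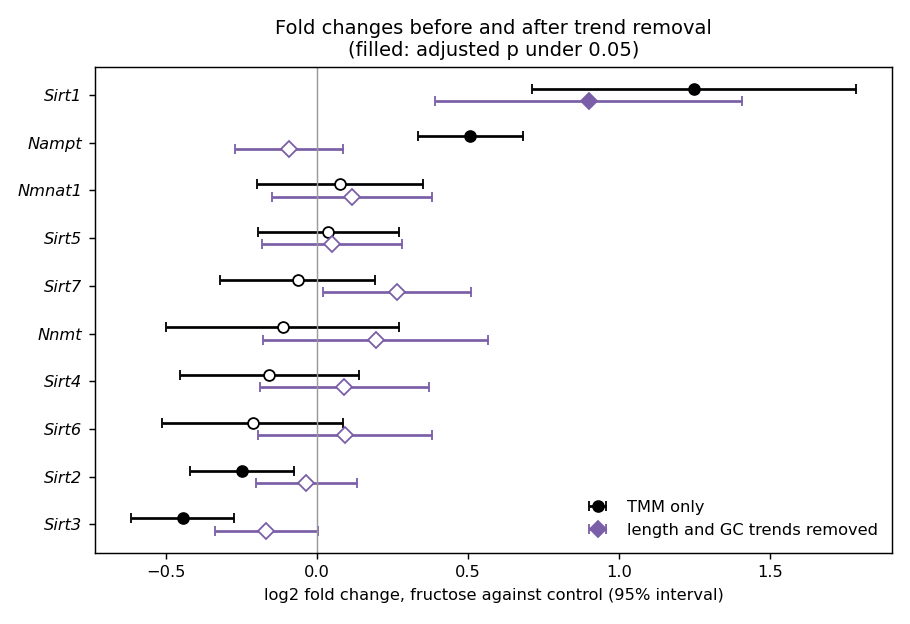
Log2 fold changes (fructose against control, horizontal axis) with 95% intervals are plotted for the 10 genes, in black circles with TMM scaling only and in purple diamonds with the length and GC trends removed, filled where the adjusted p was under 0.05. Sirt1 stayed above 0 in both fits (1.25 and 0.90), while Nampt moved from 0.51 to -0.09 and Sirt3 from -0.44 to -0.17.

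By another rule, an unadjusted p under 0.05 with a fold change over 1.3, 17.6% of all tested genes were higher and 6.18% lower. Sirt1 and Nampt were higher and Sirt3 lower by that rule, and Sirt2, whose change was smaller than the fold limit, was not called. Scaling also set the balance over all genes, since 59.2% of calls were higher with TMM, 46.2% once both trends were removed and 72.3% when library size was the only scaling.

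Genes around the 10 were taken from 7 lists, which hold 90 gene entries of which 75 were tested. Among those 75, 13 were called higher, 10 lower and 52 not, with a median log2 fold change of -0.05. These shares of 13 and 10 of 75 were again close to those among all tested genes, 15.5% and 10.7%. With both trends removed, 4 were called higher and 3 lower. The skeletal muscle markers and the mitochondrial share given above moved with the groups for these lists too, and their part was not tested.

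**Figure D4:**
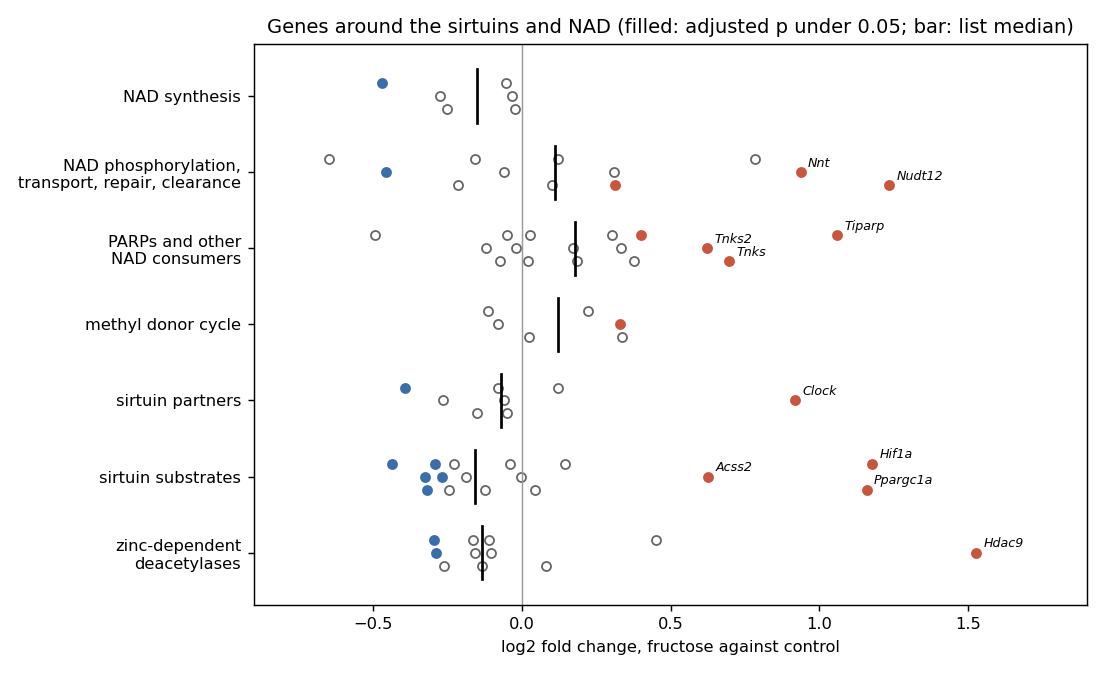
Each point is the log2 fold change (fructose against control, horizontal axis) of 1 tested gene in 1 of 7 lists (vertical axis), filled red (higher) or blue (lower) where the adjusted p was under 0.05, and black bars are list medians. All 6 tested genes of NAD synthesis lie below 0 with this TMM scaling (3 with library size only), and the points above 1 are Nudt12, Tiparp, Hif1a, Ppargc1a and Hdac9.

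The other genes of NAD synthesis were mostly rare in fetal BAT. Of 15 listed, 6 were tested, 1 was called lower and none higher (median -0.15), and the log2 fold change was below 0 for all 6 with TMM, for 3 with library size only and for 4 with both trends removed. Over all tested genes 15.5% were called higher and 10.7% lower. The called gene was Naprt, which starts NAD synthesis from nicotinic acid, at 74.9 and 66.2 CPM in control and at 53.7 and 48.2 CPM in fructose (log2 fold change -0.47, SE 0.10, edgeR adjusted p = 0.00495). Its groups did not overlap, and 31.6% of all tested genes likewise had both fructose libraries below both control libraries. With both trends removed Naprt was at -0.16 (edgeR adjusted p = 0.338). Nmnat3, the mitochondrial counterpart of Nmnat1, was at 34.7 and 30.5 CPM in control and at 28.5 and 26.3 CPM in fructose (log2 fold change -0.25, edgeR adjusted p = 0.103). Nmrk1, a kinase for nicotinamide riboside, was between 4.44 and 5.12 CPM in every library (log2 fold change -0.03, edgeR adjusted p = 0.922). Nmnat2, with 7, 6, 8 and 11 counts, and Nmrk2, with 0, 0, 0 and 5 counts, were too low to test. Of the route from tryptophan, Haao, Kynu, Kmo, Tdo2, Ido1, Ido2 and Acmsd had at most 7 counts in any library and were not tested. Qprt (54 to 72 counts, log2 fold change -0.05) and Afmid (57 to 85 counts, -0.02), also of this route, were tested and not called. Both fall outside the rule for naming genes and were chosen after their values were seen.

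Among genes that phosphorylate, carry, repair or clear NAD and its products, 3 of 12 tested were called higher and 1 lower (median log2 fold change 0.11). The shares over all tested genes were 15.5% higher and 10.7% lower. Nudt12, a peroxisomal enzyme that splits NADH and removes NAD caps from RNA, was at 6.23 and 6.05 CPM in control and at 13.8 and 15.0 CPM in fructose (log2 fold change 1.23, SE 0.15, edgeR adjusted p = 0.000404). It was the called gene of this list that also passed with both trends removed (0.72, edgeR adjusted p = 0.0136). Aox1, an oxidase of methylated nicotinamide, the product of Nnmt, was at 20.7 and 21.2 CPM in control and at 26.3 and 25.8 CPM in fructose (0.31, edgeR adjusted p = 0.0489). This call held in only 3 of 17 alternatives, and was lost with DESeq2, with either trend removed and when any single library was left out. Naxe fell (-0.46, edgeR adjusted p = 0.00214), and was at -0.06 with both trends removed. The proton-driven transhydrogenase Nnt is present as 2 gene entries whose log2 fold changes had opposite signs, so its values are uncertain. Whether the RNA of either entry yields a working enzyme was not tested. ENSMUSG00000025453, with 32 to 102 counts per library, was called higher (0.94, edgeR adjusted p = 0.0244). This call was lost with DESeq2 (adjusted p = 0.0684) and with both trends removed (0.90, edgeR adjusted p = 0.0641). The other, ENSMUSG00000116207, was at -0.65 (edgeR adjusted p = 0.337) and spread from 49 to 167 counts between libraries of 1 group. Nadk, the cytosolic NAD kinase, was at 340.6 and 428.6 CPM in control and at 349.9 and 340.4 CPM in fructose (-0.16, edgeR adjusted p = 0.295). Aox3 had at most 1 count and was not tested.

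Of 16 tested poly-ADP-ribose polymerases and other NAD consumers, 4 were called higher and none lower (median log2 fold change 0.18), beside 15.5% higher and 10.7% lower over all tested genes, and 1 was called higher and none lower with both trends removed. Tiparp, a mono-ADP-ribosyltransferase induced by the aryl hydrocarbon receptor, was at 19.3 and 11.8 CPM in control and at 30.3 and 34.7 CPM in fructose (log2 fold change 1.06, SE 0.18, edgeR adjusted p = 0.00198). The tankyrases, which modify themselves and axin, rose as well: Tnks by a log2 fold change of 0.70 (edgeR adjusted p = 0.00233) and Tnks2 by 0.62 (edgeR adjusted p = 0.00599). The fourth was Parp3 (0.40, edgeR adjusted p = 0.0368), a DNA break enzyme that falls outside the rule for naming genes and was chosen after its values were seen. With both trends removed, Parp3 passed (0.49, edgeR adjusted p = 0.0354), and Tiparp (0.51, edgeR adjusted p = 0.0647), Tnks (0.15) and Tnks2 (0.13) did not. Parp1, the main NAD consumer of the DNA damage response, was at 101.4 and 103.2 CPM in control and at 98.9 and 95.6 CPM in fructose (-0.07, edgeR adjusted p = 0.529). Cd38, the NAD glycohydrolase of the cell surface, was at 15.7 and 15.8 CPM in control and at 19.5 and 19.4 CPM in fructose (0.30, edgeR adjusted p = 0.0858). Its groups did not overlap, as for 33.4% of all tested genes with fructose higher, but it missed the threshold. Bst1 and Sarm1 were not tested, with at most 12 counts in a library.

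Nnmt draws on the methyl donor cycle, where 1 of 6 tested genes was called higher and none lower (median log2 fold change 0.12). Over all tested genes the shares were 15.5% and 10.7%. Mat2a, which makes S-adenosylmethionine outside the liver, was at 85.7 and 101.1 CPM in control and at 121.9 and 112.7 CPM in fructose (0.33, SE 0.095, edgeR adjusted p = 0.0247). Its groups did not overlap, and 33.4% of all tested genes likewise had both fructose libraries above both control libraries. Mat2a was at 0.03 with both trends removed. Ahcy, which clears the product of methylation, was at -0.08 (edgeR adjusted p = 0.523). Mat1a, the liver form, had 0 counts in every library.

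Among 8 regulators and binding partners of Sirt1, 1 was called higher and 1 lower (median log2 fold change -0.07). The shares over all tested genes were 15.5% and 10.7%. Clock, the circadian factor that Sirt1 binds, was at 6.55 and 6.55 CPM in control and at 11.1 and 13.6 CPM in fructose (0.92, SE 0.16, edgeR adjusted p = 0.00261), and was at 0.01 with both trends removed. Rps19bp1, known as an activator of Sirt1, was at 20.3 and 21.7 CPM in control and at 16.6 and 15.4 CPM in fructose (-0.39, SE 0.12, edgeR adjusted p = 0.0349). With both trends removed it was at 0.04.

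Of 16 tested genes that encode known sirtuin substrates, 3 were called higher and 5 lower (median log2 fold change -0.16), beside 15.5% higher and 10.7% lower over all tested genes, and 2 were called higher and 2 lower with both trends removed. Those higher were Hif1a, the hypoxia factor, at 12.04 and 9.26 CPM in control and 24.6 and 23.6 CPM in fructose (1.18, SE 0.14, edgeR adjusted p = 0.000391), Ppargc1a, which encodes PGC-1α, at 6.92 and 7.49 CPM against 14.2 and 17.9 CPM (1.16, SE 0.16, edgeR adjusted p = 0.000812), and Acss2, the cytosolic acetyl-CoA synthetase, at 211.9 and 178.0 CPM against 327.9 and 274.1 CPM (0.63, SE 0.11, edgeR adjusted p = 0.00222). In all 3 both fructose libraries were above both control libraries, as in 33.4% of all tested genes. The 3 were named because they were called higher, so this adds no evidence. Hif1a (0.63, edgeR adjusted p = 0.0170) and Acss2 (0.72, edgeR adjusted p = 0.00339) passed with both trends removed, and Ppargc1a (0.48, edgeR adjusted p = 0.0858) did not. Those lower were Trp53, which encodes p53 (-0.44, edgeR adjusted p = 0.00858), the mitochondrial Sirt3 target Idh2 (-0.33, edgeR adjusted p = 0.0203), the malonyl-CoA decarboxylase Mlycd (-0.32, edgeR adjusted p = 0.0281) and, named after their values were seen, the complex I subunit Ndufa9 (-0.29, edgeR adjusted p = 0.0271) and the NF-κB subunit Rela (-0.27, edgeR adjusted p = 0.0450). None of these 5 passed with both trends removed, where their log2 fold changes lay between -0.19 and -0.02. Cps1 had 0 counts in every library and was not tested.

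The 11 zinc-dependent deacetylases, which remove acetyl groups without NAD, gave the nearest comparison family. Of these 1 was called higher and 2 lower (median log2 fold change -0.13), against 1 higher and 2 lower among the 7 sirtuins (median -0.16). Over all tested genes 15.5% were called higher and 10.7% lower, so counts this small are no result about either family. With both trends removed, 0 of the deacetylases were called higher and 1 lower, against 1 and 0 of the sirtuins. Hdac3, the catalytic subunit of the nuclear corepressor complex, was at 137.8 and 150.2 CPM in control and at 117.4 and 117.5 CPM in fructose (-0.29, SE 0.08, edgeR adjusted p = 0.0214). Hdac5, a class IIa member, was at 118.4 and 114.2 CPM in control and at 93.2 and 97.4 CPM in fructose (-0.29, SE 0.08, edgeR adjusted p = 0.0211), and it passed with both trends removed (-0.30, edgeR adjusted p = 0.0423). Hdac9, a class IIa member that represses myogenic MEF2 factors, had 12 and 7 counts in control and 36 and 34 in fructose (1.53, SE 0.43, edgeR adjusted p = 0.0227), and was at 0.97 (edgeR adjusted p = 0.202) with both trends removed. The groups of all 3 did not overlap, beside 33.4% (fructose higher) and 31.6% (fructose lower) of all tested genes without overlap.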

How the data were processed

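Bulk RNA-seq of 4 fetal BAT libraries was used. The deposited values are raw and unnormalized read counts of each gene in each library. The authors filtered reads with fastp, mapped them to mm10 with Bowtie2 2.0.0.5 and TopHat2 2.0.0, assembled and merged transcripts with StringTie 2.2.0 and Cuffmerge and took counts from the merged models, and their methods name DESeq2 for the comparison. The counting tool, its strand setting and the annotation release were not given in the sources used here. Each of the 4 single-library tables matched its column of the joint table, and no column was left unassigned (0).

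Ensembl identifiers were matched to GENCODE (GRCm38), and 43 of 22298 had no match. Genes passing filterByExpr (12888) were fitted with edgeR 4.0.16 (R 4.3.3) by the two-sided quasi-likelihood test of fructose against control, with TMM factors of 0.986, 0.9725, 1.007 and 1.036, no covariate and Benjamini-Hochberg adjustment, called at an adjusted p under 0.05. The script was tested on simulated data first. The biological coefficient of variation was 8.52%, and same-group libraries differed beyond counting noise (chi-square per degree of freedom 13.1 in control and 8.45 in fructose). CPM is TMM-scaled, and CPM per kb divides it by the longest protein-coding transcript. Length and GC trends were lowess curves (span 0.3) removed from each library as offsets. Groups came from the labels. The alternatives were DESeq2 1.42.0, other scaling, other filters, trend removal, a replicate block, leaving out each library and the thresholds of the study's methods.

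The 10 members and all gene lists were chosen with earlier results of these data known, so they are not independent evidence. All members are named, and from each other list up to 3 called genes with the highest and up to 3 with the lowest log2 fold change, the untested genes and a few fixed genes (Nmnat2, Nmnat3, Nmrk1, Nmrk2, Naprt, Nadk, Parp1, Cd38, Mat2a and Ahcy). Of the untested genes, 1 is not reported here. Nearest genes were sought for the called members with the highest and lowest log2 fold change at a mean of 5 CPM or more.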

Additional observations from a re-analysis of the deposited data

How the results depend on the processing

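Sirt1 kept its direction and its call under every alternative run (log2 fold change 0.90 to 1.58), and its lowest value came with both trends removed. The numbers of genes called higher over the whole table were 1113 with the length trend removed, 938 with the GC trend removed and 420 with both, against 2001, and ranged from 1266 (without fructose library 2) to 2254 when single libraries were left out. Those called lower were 857 with library size only, 490 with both trends removed and 797 by the study's thresholds, against 1379, and ranged from 527 (without fructose library 2, and 892 without fructose library 1) to 1685 when single libraries were left out. The lone library of a group was then assumed to vary like the other group. Of the 10 sirtuin and NAD genes, 1 was called higher with the GC trend or both removed. With DESeq2 in both settings, library size only, either trend removed or the study's thresholds 1 was called lower, with both trends removed 0, and with single libraries left out 1 to 3. Of the listed pathway genes, 7 were called higher with the length or the GC trend removed and 4 with both. Called lower were 5 with library size only, 4 with the length trend removed or the study's thresholds, 3 with both trends removed, and 3 (without fructose library 2, and 5 without fructose library 1) to 14 with single libraries left out. Same-numbered libraries did not deviate together (correlation -0.0266, 2 pairs), but with 2 libraries per group this cannot exclude a pairing by number. A replicate block gave 2117 genes higher and 1441 lower, and with both trends removed 420 and 418, with 1 and 0 of the 10 genes and 5 and 2 of the pathway genes. Log2 fold changes that turned sign with both trends removed, given first without and then with the replicate block, were 0.090 and 0.090 (Sirt4), 0.093 and 0.095 (Sirt6), 0.26 and 0.26 (Sirt7), -0.092 and -0.091 (Nampt), 0.19 and 0.21 (Nnmt), 0.038 and 0.039 (Rps19bp1), -0.13 and -0.13 (Cd38) and 0.045 and 0.045 (Ahcy). With the GC trend removed those that turned were Sirt5 (-0.085), Sirt7 (0.13), Nampt (-0.087), Mat2a (-0.048) and Cd38 (-0.25), and with the length trend removed Sirt7 (0.094), Nnmt (0.14) and Nmrk1 (0.096). Nmrk1 (0.027) and Foxo1 (0.057) turned with library size only, and Foxo1 also with no filter (0.0013) and with at least 10 counts in every library (0.0061). With single libraries left out, Sirt5 ranged from -0.061 to 0.14, Nnmt from -0.38 to 0.22, Nmrk1 from -0.13 to 0.074, Nadk from -0.31 to 0.019 and Foxo1 from -0.024 to 0.021. The cause of these changes was not tested. The precision of Sirt1 is limited by 2 libraries per group and 57 and 36 counts in control, and lengths and GC content are those of 1 annotated transcript per gene, which may not be the one expressed.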

Other observations

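Among the sirtuin substrates, Foxo1 and Sod2 did not pass the test with TMM scaling alone but passed under some alternatives, and both were chosen after their values were seen. Foxo1, the insulin-regulated factor that Sirt1 and Sirt2 deacetylate, was at 83.0 and 82.1 CPM in control and 81.1 and 83.6 CPM in fructose (log2 fold change -0.004, edgeR adjusted p = 0.977), with overlapping groups. With both trends removed it was at -0.47 (edgeR adjusted p = 0.00508), and with the GC trend alone removed at -0.083 (edgeR adjusted p = 0.518). Sod2, the mitochondrial superoxide dismutase that Sirt3 activates, was at 1207 and 1305 CPM in control and 1098 and 1020 CPM in fructose (log2 fold change -0.25, edgeR adjusted p = 0.0627), with groups that did not overlap. With both trends removed it was at -0.84 (edgeR adjusted p = 0.00150), with DESeq2 it passed (adjusted p = 0.0308), and it also passed with no filter on low counts (edgeR adjusted p = 0.0498) and without control library 1 (-0.30, edgeR adjusted p = 0.00643). The shift of Foxo1 and Sod2 with trend removal rests on the length and GC content of the 1 transcript taken per gene.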
